A study of Sus scrofa with 9 samples.

Results

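The miRNAs best known from liver, muscle and nervous tissue were followed through porcine gametes and pronuclear embryos: miR-122, miR-1, miR-133a, miR-206, miR-124a and miR-9. They were taken from a table of small RNA names by the name alone, ignoring the species prefix and keeping every arm and every length variant. This gave 11 names on 16 rows, of 1313 names on 1420 rows in all, and rows that carried the same name were summed. The set was put together with results of these data known, among them low values of several of these miRNAs in PN embryos relative to MII oocytes. Since the members were in that way selected on their CPM for PN embryos against MII oocytes, that comparison is given only as a description, and its calls, counted once beside those of all names, support nothing.

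MicroRNAs are short RNAs cut from a hairpin precursor, whose 5p or 3p arm is loaded into Argonaute and directs the repression of matching mRNAs. miR-122 is the dominant miRNA of hepatocytes, miR-1, miR-133 and miR-206 are the myomiRs that accompany muscle differentiation, and miR-124 and miR-9 are abundant in neurons and neural progenitors. None of them is a classical marker of an oocyte or a spermatozoon.

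The study sequenced small RNA from porcine MII oocytes, PN embryos made by in vitro fertilization and sperm, all without treatment, with 3 libraries a group. By its methods the oocytes came from ovaries of gilts past puberty, were matured in vitro and were freed of cumulus cells with hyaluronidase, and oocytes and embryos were pooled in large numbers. The sequenced sperm was purified fresh sperm of adult Large White boars, while Landrace boars are named for fertilization. No source used here ties a library to an animal or a culture, so the p-values measure only the spread between these samples, which may be technical.

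Levels are given in CPM, the count of a name scaled to a library total of 1000000. The totals were 289183 to 381674 counts in MII oocytes, 422630 to 771001 in PN embryos and 1640492 to 2455102 in sperm, so depth and group cannot be told apart. Few counts under 5 occurred, and a value of 0 was read as fewer than 5 counts, which is 13.1 to 17.3 CPM for MII oocytes, 6.49 to 11.8 CPM for PN embryos and 2.04 to 3.05 CPM in sperm. The names known for sperm (miR-34c and miR-449a) summed to 89433 to 93580 CPM in the sperm libraries and to 1155 to 1584 CPM elsewhere. Those known for oocytes and early embryos (miR-371 and miR-202) summed to 1764 to 2429 CPM for MII oocytes and 10.2 to 23.7 CPM in sperm. A lower CPM in these bulk libraries cannot tell fewer cells that carry a miRNA from less of it per cell, and adapter ligation can differ between miRNAs.

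Together the 6 families made up a small part of each library. Their sum was 2127, 1915 and 1501 CPM in the MII oocyte libraries, 494, 591 and 524 CPM in the PN embryo libraries and 11258, 11541 and 11567 CPM in the sperm libraries. The groups did not overlap, and sperm was highest. miR-9 and miR-122 carried most of this sum, while the muscle miRNAs summed to at most 246 CPM in any library.

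**Figure D1:**
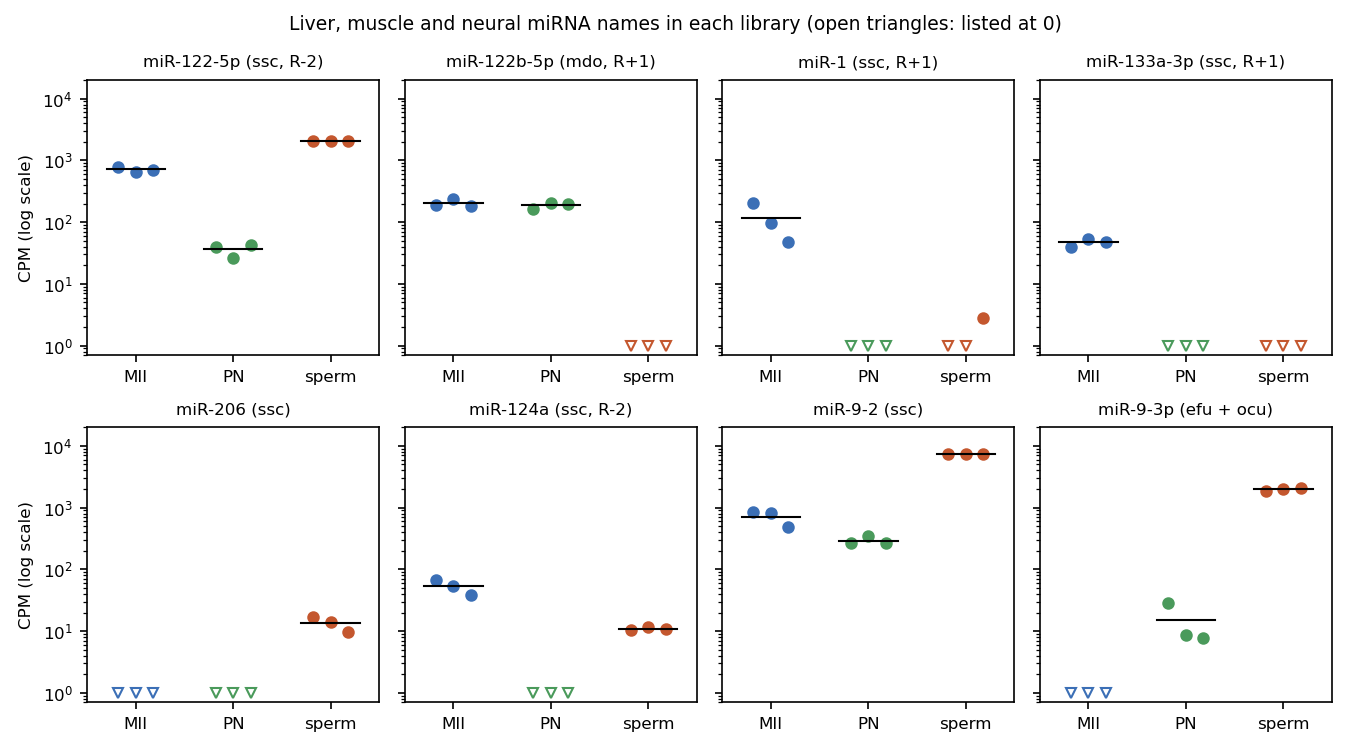
CPM (log axis) of 8 liver, muscle and neural miRNA names, or sums of names, in each of the 9 libraries; points are libraries, lines are group means and open triangles are libraries listed at 0. miR-122-5p and miR-9-2 were highest in the 3 sperm libraries, while miR-1, miR-133a-3p and miR-124a were highest in the 3 MII oocyte libraries and listed at 0 in PN embryos.

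miR-122, the miRNA of hepatocytes, is encoded by MIR122 on chromosome 1, 162329776 to 162329860 (RefSeq annotation of Sscrofa11.1), outside any other annotated gene. In MII oocytes and sperm most of its reads carried the pig name ssc-miR-122-5p_R-2, where the suffix is the table's own mark for a length variant. In PN embryos the opossum names together held 374 counts against 68 of the pig name. The pig name had 303, 192 and 203 counts in MII oocytes (794, 642 and 702 CPM), 17, 18 and 33 counts in PN embryos (40.2, 25.9 and 42.8 CPM) and 3353, 3501 and 5063 counts in sperm (2044, 2020 and 2062 CPM). The groups did not overlap, PN embryos were lowest and the sperm libraries lay close together. The mean was 712 ± 76.7 CPM for MII oocytes, 36.3 ± 9.11 CPM for PN embryos and 2042 ± 21.3 CPM for sperm (SD, n = 3 each). As a description, PN embryos were 19.6-fold lower than MII oocytes.

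The test used for sperm was edgeR's quasi-likelihood test over all 587 names with enough counts, with Benjamini-Hochberg adjustment (q), and a name was called at q under 0.05 with a log2 fold change of at least 1 in size. A name that passed the filter on low counts only through the group where it was high had to differ, so its q supports nothing. These were ssc-miR-1_R+1, ssc-miR-133a-3p_R+1 and ssc-miR-124a_R-2 through MII oocytes, and both miR-9-3p names through sperm. The opossum name mdo-miR-122b-5p_R+1 passed through MII oocytes and PN embryos and was listed at 0 in sperm, so the same holds for its sperm comparisons. Both sperm comparisons share a group of libraries with the contrast that led to the choice of miRNAs. Low PN embryo values relative to MII oocytes were known at that choice. A member's q for sperm against either group is therefore not free of it, above all against PN embryos, and describes these libraries only. ssc-miR-122-5p_R-2 was 2.87-fold higher in sperm than in MII oocytes (log2 fold change 1.57 ± 0.10, SE, edgeR q = 8.13e-08). It was 56.2-fold higher in sperm than in PN embryos (5.95 ± 0.14, edgeR q = 3.25e-11). In rank by mean CPM it stood at 63 of 806 listed names in sperm, 93 of 597 in MII oocytes and 346 of 879 in PN embryos.

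The opposite arm, ssc-miR-122-3p, was seen only in sperm, with 8, 11 and 12 counts, and was too low to be tested. It took 0.238%, 0.313% and 0.236% of the ssc-miR-122 counts in the sperm libraries, with exact binomial intervals from 0.103% to 0.560%. In MII oocytes 0 of 698 counts were of this arm, which allows a share of up to 0.430% by counting error. Fewer than 5 counts in a library would allow 1.62% to 2.54%. A share like that of sperm was therefore not detectable there. The intervals and the limit of 0.430% cover counting error only, since PCR reads without molecular identifiers are not independent molecules.

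A second miR-122 name came from opossum, mdo-miR-122b-5p_R+1, and its groups ran the other way. It had 71, 71 and 52 counts in MII oocytes (186, 237 and 180 CPM), 68, 143 and 149 counts in PN embryos (161, 205.7 and 193 CPM) and 0 in every sperm library. MII oocytes and PN embryos overlapped, at 201 ± 31.5 and 187 ± 23.1 CPM, and the pig name's low level in PN embryos was not seen for this one. With each sperm library set to 5 counts, sperm was at least 75.7-fold lower than MII oocytes and at least 70.3-fold lower than PN embryos. Its partner mdo-miR-122b-3p_L-1_1ss22TC was listed only in PN embryo libraries 2 and 3, with 6 and 8 counts. Whether the opossum names are porcine miR-122 or another RNA of like sequence was not tested.

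Summed, the miR-122 names reached 914 ± 57.5 CPM for MII oocytes, 229 ± 24.6 CPM for PN embryos and 2047 ± 20.6 CPM in sperm. The sum was higher in sperm than in MII oocytes by 1.33 ± 0.08 on the log2 scale (edgeR q = 5.25e-08) and than in PN embryos by 3.402 ± 0.09 (edgeR q = 4.95e-11). Without the opossum names, an alternative added after the data were seen, these differences were 1.69 and 6.08. With DESeq2's size factors the first was 0.98 (edgeR q = 1.68e-06), under the fold set for a call.

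No myomiR name exceeded 207 CPM in any library. In rank by mean CPM in MII oocytes, ssc-miR-1_R+1 stood at 196 and ssc-miR-133a-3p_R+1 at 269 of 597 listed names. miR-1 and miR-133a share a precursor transcript in muscle, and their genes MIR1 (chromosome 17, 61894036 to 61894143) and MIR133A-1 (chromosome 17, 61904781 to 61904883) lie 10637 bases apart. A further copy, MIR133A-2 (chromosome 6, 106998899 to 106998971), lies within MIB1, a gene for an E3 ubiquitin ligase of Notch signaling, and also overlaps a lncRNA. The table listed ssc-miR-133a-3p_R+1 on 2 rows, as many as there are MIR133A genes, and the rows held equal counts whose sums were whole numbers in 9 of 9 libraries.

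The counts of ssc-miR-1_R+1 were 79, 29 and 14 in MII oocytes (207, 96.9 and 48.4 CPM), 0 in every PN embryo library and 0, 0 and 7 in sperm, where the last is 2.85 CPM. MII oocytes thus held all but 7 of its counts, and no library of another group reached their range. The spread among oocytes was wide, at 117 ± 81.3 CPM (SD, n = 3), and library 1 was 2.85 times the mean of the other two. Sperm was at least 40.1-fold lower than MII oocytes with zeros set to 5 counts. The fitted log2 fold change was -6.49 ± 1.00. It was -5.62 without MII oocyte library 1, -9.52 without sperm library 3, and -5.81 and -5.88 without sperm libraries 1 and 2. The name passed the filter through MII oocytes alone, so no q is given for this difference. Sperm and PN embryos were both at or under 5 counts on average, so no fold is given between them (edgeR q = 0.261). As a description, PN embryos were at least 13.8-fold lower than MII oocytes, although the PN libraries were deeper.

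ssc-miR-133a-3p_R+1, which in muscle is processed from the same transcripts as miR-1, had 15, 16 and 14 counts in MII oocytes (39.3, 53.5 and 48.4 CPM) and 0 in every PN embryo and sperm library. It was listed in MII oocytes alone, and its oocyte libraries lay close together, at 47.1 ± 7.18 CPM. In MII oocyte library 1, where miR-1 was highest, it was 0.771 times the mean of the other two, so the wide spread of miR-1 was not shared by its neighbour. Sperm was at least 17.7-fold lower than MII oocytes, and PN embryos were at least 5.54-fold lower as a description.

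ssc-miR-206, a miRNA of skeletal muscle, went the other way. It had 28, 24 and 24 counts in sperm (17.1, 13.8 and 9.78 CPM) and was listed at 0 in all MII oocyte and PN embryo libraries. Its mean in sperm, 13.6 ± 3.65 CPM, is within what 5 counts stand for in the MII oocyte libraries, so a level like that of sperm was not detectable in oocytes. It did not pass the filter on low counts and was not tested. Its gene MIR206 (chromosome 7, 45976293 to 45976372) lies 3765 bases from MIR133B (chromosome 7, 45980138 to 45980217), and no row was named miR-133b. The muscle names together summed to 164 ± 75.7 CPM for MII oocytes, 0 in PN embryos and 14.5 ± 2.29 CPM in sperm.

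Of the neural pair, miR-124a, which in neurons represses non-neuronal transcripts, was listed at 0 in PN embryos like miR-1 and miR-133a. ssc-miR-124a_R-2 stood on 2 rows, as many as there are MIR124A genes (MIR124A-1, chromosome 4, 69968854 to 69968958, and MIR124A-2, chromosome 14, 13201425 to 13201509). Its summed counts were 26, 16 and 11 in MII oocytes (68.1, 53.5 and 38.0 CPM), 0 in every PN embryo library and 17, 20 and 27 in sperm (10.4, 11.5 and 11.0 CPM). The lowest oocyte library was above the highest sperm library. Sperm and PN embryos are not shown to be separate, since fewer than 5 counts stand for up to 11.8 CPM in PN embryos, above every sperm library. Sperm, at 11.0 ± 0.588 CPM, was 4.85-fold lower than MII oocytes, at 53.2 ± 15.0 CPM (log2 fold change -2.21 ± 0.42, SE). For the same counts in the table with family sums the difference was -2.10 ± 0.43. With a replicate block it was -2.07 and was not called (edgeR q = 0.055). The name passed the filter through MII oocytes alone, so its calls support nothing. PN embryos were at least 6.26-fold lower than MII oocytes as a description.

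miR-9, which acts in neural progenitors on the timing of neurogenesis, was the most abundant of the set in sperm and in PN embryos, while the miR-122 names were higher in MII oocytes. With identical rows counted once, miR-9 stood at 239 CPM for MII oocytes, 102 CPM for PN embryos and 3128 CPM in sperm, above the miR-122 names in sperm alone. The name ssc-miR-9-2 stood on 3 rows of equal counts, as many as there are miR-9 genes: MIR9-1 (chromosome 4, 93660422 to 93660510, overlapping a lncRNA), MIR9-2 (chromosome 2, 96076352 to 96076438) and MIR9-3 (chromosome 7, 54948452 to 54948532). The rows alternated with those named miR-9-3p, and the name is taken here as the 5p arm. Mature miR-9 is the same RNA from each gene, so the values cannot say which gene the reads came from.

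Summed over its rows, ssc-miR-9-2 had 318, 249 and 140 counts in MII oocytes (833, 832 and 484 CPM), 112, 238 and 208 counts in PN embryos (265, 342 and 270 CPM) and 11961, 12970 and 18246 counts in sperm (7291, 7482 and 7432 CPM). The groups did not overlap, and MII oocyte library 3 lay nearer to the PN embryos than to the other oocyte libraries. The mean was 716 ± 201 CPM for MII oocytes, 292 ± 43.3 CPM for PN embryos and 7402 ± 99.1 CPM in sperm. Sperm was 10.3-fold higher than MII oocytes (log2 fold change 3.42 ± 0.16, edgeR q = 9.44e-09) and 25.3-fold higher than PN embryos (4.78 ± 0.17, edgeR q = 8.73e-10). It ranked 27 of 806 listed names in sperm, 91 of 597 in MII oocytes and 146 of 879 in PN embryos. As a description, PN embryos were 2.45-fold lower than MII oocytes, a far smaller difference than for miR-122-5p.

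The other arm, miR-9-3p, appeared under a bat name and a rabbit name, efu-miR-9-3p_R-1 and ocu-miR-9-3p_R-1, whose rows held identical counts. They were summed on the reading that the caller had split the same reads over these rows, which was not tested. Their sum was 0 in every MII oocyte library, 28.4, 8.63 and 7.78 CPM for PN embryos and 1891, 2007 and 2045 CPM in sperm. Sperm lay far above both other groups, while PN embryos and MII oocytes cannot be told apart, since the PN values lie at or near what fewer than 5 counts stand for in the oocyte libraries. Sperm, at 1981 ± 79.9 CPM, was 132.6-fold higher than PN embryos. In the fit, efu-miR-9-3p_R-1 was higher in sperm than in PN embryos by 7.39 ± 0.24 on the log2 scale and ocu-miR-9-3p_R-1 by 7.37 ± 0.25. Without PN embryo library 1 these differences were 8.18 and 8.15. Against MII oocytes with 5 counts set for the sum in each library, the sum was at least 126-fold higher. For the rabbit name alone, which stood on 1 row, the bound with 5 counts was 42.1-fold. Both names passed the filter through sperm alone, so no q is given for them.

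**Figure D2:**
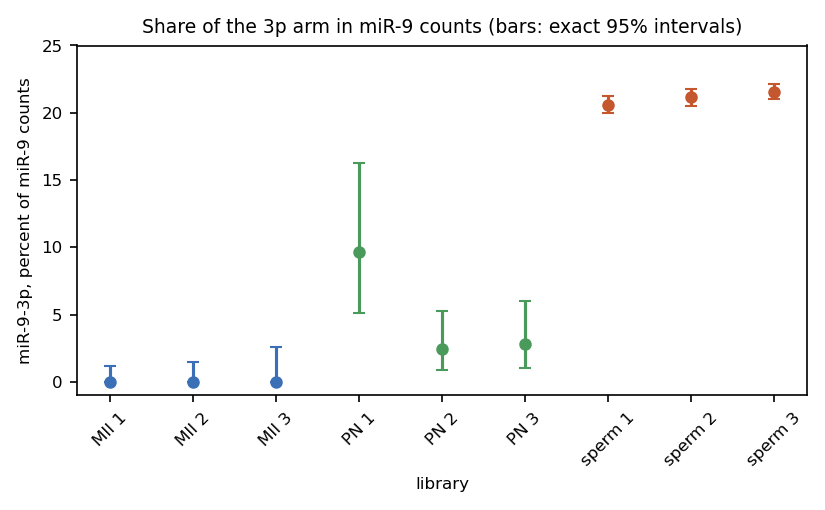
Share of the 3p arm among all miR-9 counts (percent) in each library, with exact 95% binomial intervals as bars, which cover counting error only. The share was 0 in the MII oocyte libraries, 2.46% to 9.68% in PN embryos and 20.6% to 21.6% in sperm.

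The balance of the miR-9 arms was compared as the share of the 3p arm. This arm took 20.6%, 21.1% and 21.6% of miR-9 counts in sperm, 9.68%, 2.46% and 2.80% in PN embryos and 0% in the MII oocyte libraries. Sperm stood well apart, and PN embryo library 1 stood above the other PN libraries with 12 counts of the arm against 6 and 6. Over the MII oocyte libraries 0 of 707 counts were 3p, which allows a share of up to 0.424%. Fewer than 5 counts on each of the 3 rows of this arm would allow 4.50% to 9.68%, limits that reach the shares in PN embryos. These limits are wide, since a single row of this arm held 4, 2 and 2 counts in the PN embryo libraries. With 5 counts set for the sum of the rows they would be lower, which was not computed. No difference between PN embryos and MII oocytes is shown. The shares were 21.1% ± 0.491 in sperm and 4.98% ± 4.07 in PN embryos (SD, n = 3). In each of 3 comparisons the exact two-sided permutation test gave p = 0.1 (adjusted p = 0.1), the smallest that 3 against 3 libraries allow, so this design cannot reach 0.05.

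**Figure D3:**
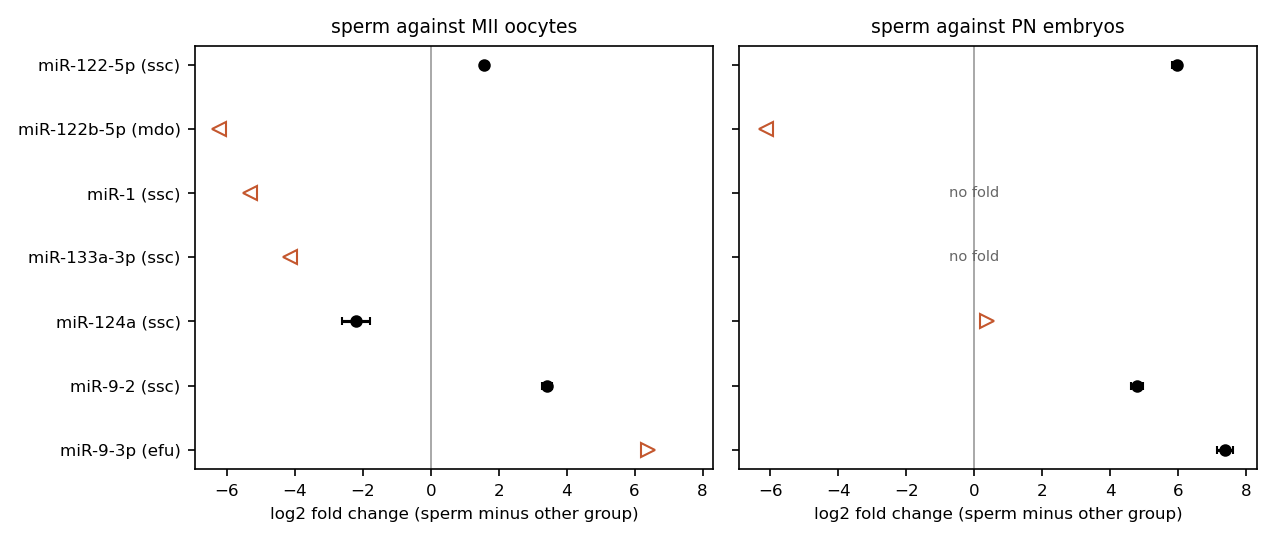
Log2 fold change of sperm against MII oocytes (left) and PN embryos (right) for the tested names, with SE as bars; open triangles are bounds with libraries at 0 set to 5 counts, and ocu-miR-9-3p, which shares its counts with the bat name, is not drawn. miR-122-5p, miR-9-2 and miR-9-3p lay on the side of sperm in both panels, and miR-122b-5p on the other side in both.

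Of the 11 names, 8 passed the filter on low counts, 5 of them through 1 group only. The 3 that did not were ssc-miR-122-3p, mdo-miR-122b-3p_L-1_1ss22TC and ssc-miR-206. Against MII oocytes all 8 tested names were called in sperm, 4 higher and 4 lower, where 83.0% of all tested names were called, 42.2% higher and 40.7% lower. Against PN embryos 6 of 8 were called, 5 higher and 1 lower, where 86.2% were called, 38.8% higher and 47.4% lower. Both counts of higher names include the bat and the rabbit name of miR-9-3p, whose rows held identical counts. The count against PN embryos also includes ssc-miR-124a_R-2, whose sperm and PN embryo levels are not shown to be separate. Sperm differed from the other groups at most of the miRNAs in the table, so being called does not set these names apart. For all 8 tested names, and for 81.6% of all names, the libraries of sperm and MII oocytes did not overlap. For 6 of the 8, and for 92.2% of all names, those of sperm and PN embryos did not overlap, with each 0 taken as 0. In the table with family sums 5 of 6 families were tested, and 5 were called against MII oocytes (82.4% of all) and 3 against PN embryos (86.1% of all). Between PN embryos and MII oocytes 5 of 8 tested names had a call, all lower in PN embryos, where 12.9% of all names did, 11.2% higher and 1.70% lower. This is the contrast behind the choice of the set, and nothing is read from that count, nor from the 7 of 8 names whose libraries did not overlap there (39.5% of all names).

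**Figure D4:**
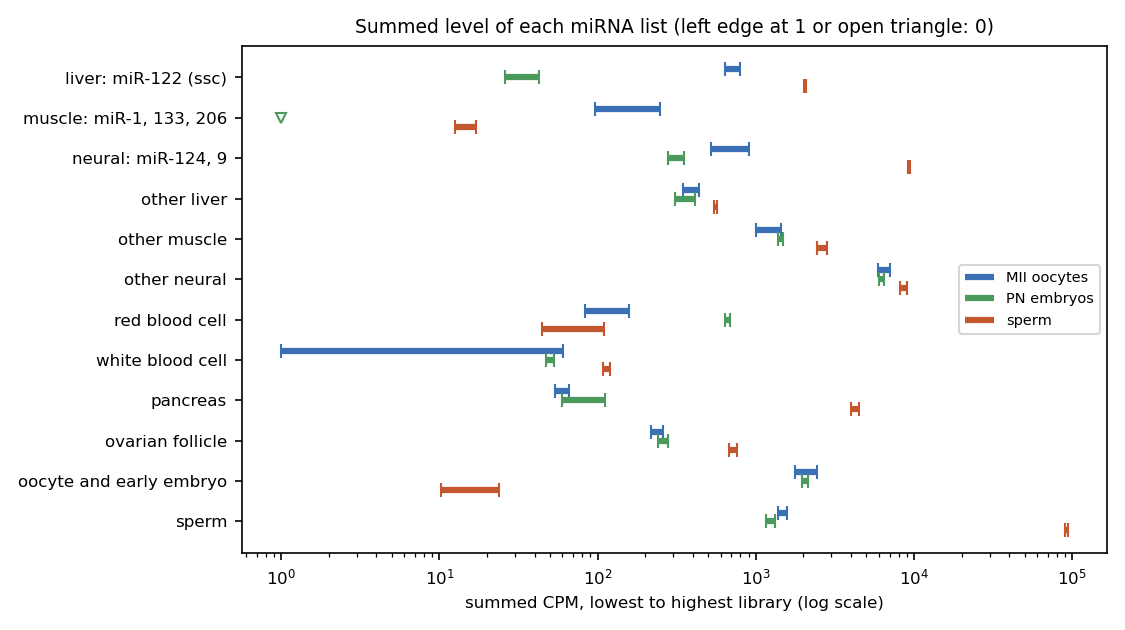
Summed CPM (log axis) of the liver, muscle and neural miRNAs described here and of lists of other miRNAs known for these and other cell types. Each bar runs from the lowest to the highest of 3 libraries. The miR-122 bars hold the pig names alone, with a mean of 36.3 CPM in PN embryos against 229 CPM with the opossum names. The muscle families were listed at 0 in PN embryos. The other muscle, liver and neural lists lay at similar levels in MII oocytes and PN embryos. Low PN embryo values were known when the members were chosen, so nothing is read from this contrast.

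Other miRNAs known for the same tissues were set beside them: miR-192, miR-194 and miR-885 for liver, miR-499, miR-486 and miR-208 for muscle, and 10 for nervous tissue, of which miR-208, miR-134 and miR-219 had no row. Of 28 names 21 were tested, and 2 were called between PN embryos and MII oocytes, both higher in PN embryos and both neural, with a median log2 fold change of 0.02 against 0.08 over all names. They were pal-miR-132-5p_L+1R-2 and eca-miR-212_R+1. None of the 21 was called lower in PN embryos, where 1.70% of all names were, so nothing is read from this count. Over all names 12.9% were called in this comparison.

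ssc-miR-194a-5p_R+2, of liver and gut, was at 354, 408 and 280 CPM for MII oocytes, 267, 342 and 326 CPM for PN embryos and 308, 306 and 292 CPM in sperm. It did not pass the test in any comparison. ssc-miR-192_L-1R+3, also of liver and gut, was at 31.8 ± 11.5 CPM for MII oocytes, 32.2 ± 16.2 CPM for PN embryos and 249 ± 8.49 CPM in sperm, and it rose in sperm against both (edgeR q = 4.01e-06 and 1.03e-06).

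ssc-miR-499-5p, which lies in a cardiac and slow-muscle myosin gene, was at 1202 ± 241 CPM for MII oocytes, 1284 ± 39.3 CPM for PN embryos and 2544 ± 201 CPM in sperm. It was thus more abundant than all members of the muscle families together in each group. Its difference between PN embryos and MII oocytes was 0.02 ± 0.13 on the log2 scale (edgeR q = 1), and it rose in sperm against MII oocytes by 1.14 ± 0.13 (edgeR q = 1.17e-05). ssc-miR-486, known from muscle and from red blood cells, was at 93.2 ± 8.90, 139 ± 13.3 and 128 ± 19.5 CPM and was not called in any comparison.

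In the list of other neural miRNAs ssc-miR-7-5p was the most abundant, at 4241 ± 633 CPM for MII oocytes, 3330 ± 95.8 CPM for PN embryos and 4065 ± 546 CPM in sperm, and was not called. ssc-miR-132, induced by neuronal activity, was at 468 ± 24.97, 618 ± 9.37 and 2931 ± 86.5 CPM and rose in sperm against MII oocytes by 2.70 ± 0.07 (edgeR q = 1.14e-10). Against MII oocytes 17 of the 21 tested names were called in sperm, 9 higher and 8 lower, and against PN embryos 17, 8 higher and 9 lower, beside the 83.0% and 86.2% over all names.

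Lists for other cell types were also read beside the members. The red blood cell names (miR-451 and miR-144, 3 names) summed to 83.0 to 157 CPM for MII oocytes, 641 to 690 CPM for PN embryos and 44.4 to 110 CPM in sperm. Of these, 2 of 3 were called higher in PN embryos than in MII oocytes, beside 11.2% of all names. ssc-miR-486, also known from red blood cells but listed under muscle, was not called in this comparison (0.48 ± 0.19 on the log2 scale, edgeR q = 0.0955). With a replicate block the calls over all lists in this comparison dropped from 6 to 2. The white blood cell names (miR-142, miR-150 and miR-223, 3 names) summed to 0 to 60.2 CPM for MII oocytes, 47.3 to 53.2 CPM for PN embryos and 108 to 120 CPM in sperm. The ovarian follicle names (miR-224, miR-383, miR-143 and miR-145) summed to 217 to 259 CPM for MII oocytes, 240 to 279 CPM for PN embryos and 679 to 761 CPM in sperm. Most of the sperm sum was cfa-miR-383, at a mean of 686 CPM against 93.1 CPM for MII oocytes. Of the 4 names 1 was called higher in sperm than in MII oocytes and 3 lower, beside 42.2% and 40.7% of all names. The part of these cells in the levels of miR-122, miR-1, miR-133a, miR-124a and miR-9 was not tested.

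The names whose levels ran most like those of a member were sought for the most abundant member of each tissue, by Pearson's r of log2(CPM + 1) over the 9 libraries among 547 names. All of these points come from the same 3 groups, so a high r mostly repeats the order of the groups, and it is given as a description. For ssc-miR-122-5p_R-2 they were cfa-miR-380 (r = 0.945), at 40.5 ± 23.1 CPM for MII oocytes, 0 in PN embryos and 33.9 ± 3.63 CPM in sperm, and ssc-miR-27b-3p (r = 0.864). For ssc-miR-1_R+1 they were ssc-miR-101_R+1 (r = 0.968), at 1207 ± 255, 516 ± 42.4 and 613 ± 2.06 CPM, and ssc-miR-127 (r = 0.923). For ssc-miR-9-2 they were ssc-miR-10b (r = 0.997), at 17820 ± 998, 15672 ± 194 and 27838 ± 709 CPM, and ssc-miR-100 (r = 0.989).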

How the data were processed

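Small RNA libraries of 3 MII oocyte, 3 PN embryo and 3 sperm samples were analysed from the authors' table. The authors deposited estimated counts, marked raw in the file header and not normalized, for small RNA names of many species; 19.6% of the values above 0 were not whole (tolerance 0.005). Sscrofa11.1 is the build in the submitters' processing notes. The aligner, miRNA caller and count filter are not given in the sources used here. The table held 0 further value columns.

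Rows of the same name (105 names) were summed, and sums were rounded for the tests. edgeR 4.0.16 (R 4.3.3) was run with TMM, filterByExpr (minimum count 10) and quasi-likelihood tests on all 9 libraries, tested on simulated data. No duplicate library was found (chi-square per degree of freedom 2.20 to 12.7 between replicates). CPM used library totals and folds are ratios of mean CPM. Member names with a mean of at least 10 CPM in any group are given in every library, and the 2 most abundant names of each list are named (the sperm and oocyte lists by their sums). Other names were named after their values were seen. Members and lists were chosen with earlier results of these data known. Same-numbered samples were not treated as pairs. Alternatives were other scalings (among them size factors of DESeq2 1.42.0), filters, tests, row summing, a replicate block and leaving out each library. Hairpin positions are from RefSeq, with 11 genes matched.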

Additional observations from a re-analysis of the deposited data

How the results depend on the processing

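Counts of called members and families stayed within 1.5 times the reported count in every alternative run. Of 22 member and family differences, 20 kept direction and call in every alternative, and 2 fell under the call in 1 each. These were the miR-122 sum in sperm against MII oocytes with DESeq2 size factors (0.98) and the miR-124 sum there with a replicate block (-2.07, edgeR q = 0.055). The differences include names and sums of miR-1, miR-133a and miR-124a, both miR-9-3p names and mdo-miR-122b-5p_R+1. These passed the filter only through groups where they were high, so their kept calls support nothing. The same replicate numbers did not pair the samples (mean correlations of deviations -0.11, 0.02 and -0.04). All lists of other miRNAs together had 6 calls in PN embryos against MII oocytes, 2 with the replicate block, 11 by q alone and 2 to 7 with 1 library left out; there were 3 without MII oocyte library 1, 2 without PN embryo library 2 and 3 without PN embryo library 3, and the cause was not tested. DESeq2 size factors and library totals shifted the median of all names in sperm against PN embryos by -0.12 and -0.14. Counting identical rows once lowered the mean CPM of miR-9 from 716 to 239 in MII oocytes, 307 to 102 in PN embryos and 9383 to 3128 in sperm (4200 with repeated names once), of miR-133 from 47.1 to 23.5 in MII oocytes, and of miR-124 from 53.2 to 26.6 in MII oocytes and 11.0 to 5.48 in sperm. Depth limits what a 0 means, above all in MII oocytes, where 5 counts are up to 17.3 CPM.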

Other observations

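Of 2 tested pancreas names 1 was called in each sperm comparison, ssc-miR-375. This miRNA of pancreatic islets was at 34.1, 30.1 and 24.2 CPM for MII oocytes, 21.3, 34.5 and 29.8 CPM for PN embryos and 3935, 4411 and 4428 CPM in sperm, and eca-miR-216b was at 24.3 ± 6.44, 53.7 ± 15.0 and 36.1 ± 6.27 CPM (edgeR q = 0.0911 in sperm against MII oocytes and 0.118 against PN embryos). In the red blood cell list ssc-miR-451_R-1 was at 110, 134 and 62.2 CPM for MII oocytes, 483, 495 and 550 CPM for PN embryos and 74.4, 44.4 and 101 CPM in sperm. It was higher in PN embryos than in MII oocytes by 2.24 ± 0.31 on the log2 scale (edgeR q = 0.000478). ssc-miR-144_R+1, made from the same transcript, was at 12.2 ± 11.7 CPM for MII oocytes and 98.6 ± 14.3 CPM for PN embryos (edgeR q = 0.0285). In the white blood cell list sperm held 92.1 ± 1.39 CPM of ssc-miR-142-5p_L+2R-2, and ssc-miR-223_R+2 was listed at 0 in every MII oocyte library. In the ovarian follicle list cfa-miR-383 was at 93.1 ± 16.9, 118 ± 13.4 and 686 ± 46.5 CPM, and ssc-miR-143-3p_R+1 at 89.2 ± 16.8, 59.6 ± 5.69 and 32.5 ± 2.66 CPM.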
